A study of Mus musculus with 9 samples.

Results

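The Fox, Sox, Gata and Klf genes encode 4 families of sequence-specific transcription factors. They were taken from the deposited table as all protein-coding genes whose symbol is Fox with a letter and a digit, Sox with a number, Gata with 1 digit, or Klf with a number, apart from 1 Klf gene left out by the rule. This gave 50 of the 22469 genes listed: 24 Fox, 10 Sox, 3 Gata and 13 Klf. All libraries are of 4T1, a line of mouse mammary tumour cells, and fall into 3 groups of 3 biological replicates: the Nat10 knockout line KO-c19, the Nat10 knockout line KO-c43, and WT 4T1 cells. All 9 cultures received no treatment, were grown in DMEM with fetal bovine serum, and were collected 48 h after 300000 cells were seeded on each 6 cm dish. The labels do not say how the knockouts were made or whether each line grew from 1 cell, so a difference between the lines is a difference between 2 lines of cultures. Nat10 encodes an enzyme that acetylates cytidines in RNA.

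Fox proteins bind DNA through a forkhead domain and include pioneer factors that open chromatin, FoxO factors that growth-factor signalling keeps out of the nucleus, and Foxm1, which drives genes of cell division. Sox proteins bend DNA through an HMG box and act with partner factors. They are grouped as SoxB to SoxH by sequence, and members of a group often share targets. Gata proteins bind through zinc fingers, and Gata3 with Foxa1 specifies luminal cells of the mammary gland. Klf proteins bind GC-rich CACCC sites through C-terminal zinc fingers, and some recruit coactivators while others recruit the corepressor CtBP.

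Promoter windows were looked up in RefSeq sequence tables of GRCm38.p6. A window was found for 34 of the 50 members, giving 39 windows, and the 250 bases before the start were read in the sense of the gene. Sox5, Sox13, Klf2 and Klf9 are shown, chosen after their values were seen, as a pair of Sox genes that differed between the knockout lines and a pair of Klf genes that rose in both. Capitals mark matches on either strand. The Fox motif searched was TGTTTAC. The Sox motif was ACAAT. The Gata motif was AGATAA, and the Klf motif was CACCC. None of these contains another. The windows run from 5′ to 3′. The Sox5 window, chr6:143947107-143947356 on the minus strand, precedes the start of shorter Sox5 transcripts that lies inside the span of the whole gene. The Sox13 window is chr1:133424213-133424462 on the minus strand, the Klf2 window chr8:72318812-72319061 on the plus strand and the Klf9 window chr19:23140976-23141225 on the plus strand.
Sox5: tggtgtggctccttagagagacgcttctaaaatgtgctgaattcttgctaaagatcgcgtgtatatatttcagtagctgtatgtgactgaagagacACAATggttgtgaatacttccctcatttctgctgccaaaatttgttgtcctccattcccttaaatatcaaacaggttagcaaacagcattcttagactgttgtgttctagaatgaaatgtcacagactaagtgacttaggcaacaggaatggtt
Sox13: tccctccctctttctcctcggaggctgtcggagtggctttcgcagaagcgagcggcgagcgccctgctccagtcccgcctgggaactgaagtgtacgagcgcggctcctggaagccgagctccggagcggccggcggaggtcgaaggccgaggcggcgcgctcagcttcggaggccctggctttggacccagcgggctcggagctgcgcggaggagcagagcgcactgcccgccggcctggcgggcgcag
Klf2: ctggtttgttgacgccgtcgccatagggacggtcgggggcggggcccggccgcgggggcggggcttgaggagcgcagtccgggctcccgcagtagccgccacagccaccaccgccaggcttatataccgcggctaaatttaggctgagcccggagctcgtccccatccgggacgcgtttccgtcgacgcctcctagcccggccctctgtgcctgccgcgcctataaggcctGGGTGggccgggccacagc
Klf9: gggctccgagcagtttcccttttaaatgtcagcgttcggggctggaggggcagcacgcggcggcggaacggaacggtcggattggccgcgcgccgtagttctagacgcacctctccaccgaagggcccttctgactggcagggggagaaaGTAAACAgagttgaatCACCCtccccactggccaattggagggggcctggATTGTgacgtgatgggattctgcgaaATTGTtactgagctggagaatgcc

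These windows differ in base composition as well as in motifs. The Sox5 window held 3 CpG dinucleotides and 39.6% G and C, and the Sox13 window held 31 and 72.4%. The Klf2 window held 29 and 71.2%, and the Klf9 window 18 and 59.6%. The median member window held 19 CpG and 65.2% G and C, against 6 CpG and 52.4% in the 32851 windows of all genes. The Fox motif was present in 7.69% of member windows and 3.17% of all windows, the Sox motif in 17.9% and 27.7%, the Gata motif in 2.56% and 9.99%, and the Klf motif in 64.1% and 52%. A match describes the letters of a window and was not tied to binding or to a change in level.

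Values are gene counts that the authors normalized, called normalized counts here, and their library totals ran from 45628576 to 50123222. Most low values lay near whole multiples of 1 step per library, taken as the worth of a single read, and some were fractions of it. By that step, a single read was worth 0.826 to 1.12 normalized counts, depending on the library. Nat10 itself averaged 1740 ± 26.4 in KO-c19, 1746 ± 20.6 in KO-c43 and 6454 ± 40.9 in WT (SD, n = 3 each), so the knockout label was matched in every library by a lower level (limma adjusted p = 1.78e-17 and 1.26e-17), with reads remaining. The summed level of the 7 listed epithelial markers, of 8, was 95474 to 103622 in KO-c19, 90513 to 93553 in KO-c43 and 131069 to 139116 in WT. They did not move alike: Krt8 and Krt18 were called higher in both lines, and Cdh1, Epcam, Krt14, Krt7 and Krt19 lower. Krt14 averaged 22.25 in KO-c19, 15.06 in KO-c43 and 4960 in WT. Epcam averaged 963, 122.8 and 6422, and Cdh1 5797, 3731 and 26262. The 4 listed leukocyte markers of 8 summed to 270 to 334, 183 to 241 and 461 to 494, and Cd79a was under 10 in every library. The higher sum in WT came from Csf1r. The 4 listed fibroblast markers of 7 summed to 838 to 904, 411 to 510 and 314 to 327, nearly all of it Pdgfra, with Pdgfrb under 10 throughout. The listed endothelial, erythroid, and muscle and chondrocyte markers summed to at most 27 in any library. The part of these markers in the results was not tested. In bulk RNA, fewer cells expressing a gene and less RNA per cell cannot be told apart.

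The most abundant transcript of the 50, per kilobase of exon (GENCODE vM21 lengths), was Sox4, a SoxC factor of progenitor and tumour cells, in all 3 groups. Its length-scaled level was 3967 ± 51.5 normalized counts per kb in KO-c19, 4842 ± 71.8 in KO-c43 and 3330 ± 104 in WT (SD, n = 3 each). Gata3 came 2nd in both knockout lines, with 2261 ± 83.9 per kb in line KO-c19 and 2830 ± 72.7 in line KO-c43, and 3rd in WT, with 2353 ± 59.96. Klf6, a zinc-finger factor with tumour-suppressor roles, took 7th place in KO-c19 (1136 ± 34.7 per kb), 4th in KO-c43 (1860 ± 27.2) and 2nd in WT (2472 ± 44.7). The next places in WT went to Sox9, Foxm1 and Foxk2, whose libraries overlapped at 1707 to 1747, 1690 to 1721 and 1654 to 1744 per kb. In KO-c19 the same 3 genes were apart, at 1614 to 1835 for Sox9, 1848 to 2087 for Foxm1 and 1240 to 1348 for Foxk2. In KO-c43 they were apart as well, with Foxm1 at 2177 to 2240, Sox9 at 1445 to 1472 and Foxk2 at 1376 to 1413. Foxp4 and Klf6 could not be ordered in KO-c19, where they spanned 1064 to 1263 and 1104 to 1173. By mean normalized count, 9 members in KO-c19, 7 in KO-c43 and 6 in WT lay below 10.

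**Figure D1:**
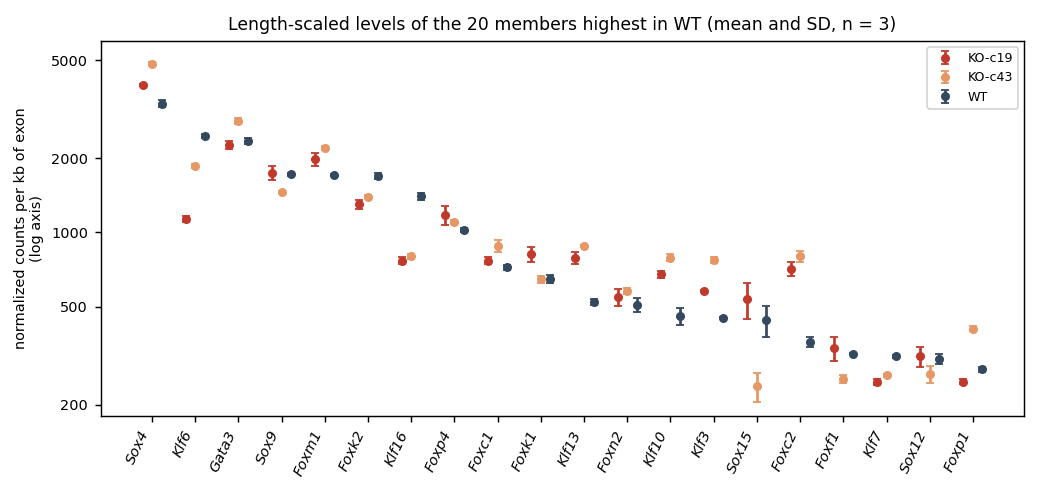
Length-scaled levels (normalized counts per kb of exon, log axis) of the 20 members highest in WT, ordered by WT, with points for the mean and bars for the SD of 3 libraries in KO-c19, KO-c43 and WT. Sox4 is the highest in each group, Klf6 and Klf16 are lower in both knockout lines than in WT, and Sox15 is low in KO-c43 only.

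A gene was tested where at least 3 of the 9 libraries reached 10 normalized counts, which held for 17579 genes and for 44 of the 50 members (22 Fox, 7 Sox, 3 Gata and 12 Klf). Group means of log2(normalized count + 1) were compared with limma, two-sided, and a gene is called at an adjusted p under 0.05, adjusted over all genes tested. Folds are taken on that scale and are too small for genes of low level. The p-values rest on the spread among 3 cultures per line. Both lines were set against the same WT libraries.

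In KO-c19, 21 members rose, where 32.8% of all tested genes did, and 13 fell, where 34.9% did. In KO-c43, 24 rose (background 32.5%) and 14 fell (background 33.1%). Changes of at least 2-fold were called upward for 4 members in KO-c19 (9.06% of all genes) and 9 in KO-c43 (8.28%), and downward for 6 (6.41%) and 4 (6.18%). The median log2 change of the tested members was 0.12 in KO-c19 and 0.18 in KO-c43, against 0.00 and 0.01 over all tested genes. When the values were divided by library totals, which moved the median of all genes to 0.10 in KO-c19, the split of members in KO-c19 became 26 rising and 10 falling, where 38.9% and 28.5% of all genes rose and fell. In both lines together, 18 members rose (25.4% of all genes), 8 fell (27%), 4 moved in opposite directions (2.96%) and 2 were called in neither (22.1%). Foxl1, Foxq1, Klf2 and Klf9 (4 members, against 5.89% of all genes tested) rose at least 2-fold in both lines. Foxj1 and Klf8 fell at least 2-fold in both, where 4.14% of all genes tested did. Foxn1 passed the filter through WT alone and had to come out lower, so nothing is read from its place in the counts of falling members. The 4 in opposite directions were Foxo1, Foxp1, Sox5 and Sox21, and without KO-c19 replicate 1 there were 6. Sox21 was not among them when any 1 KO-c43 or WT library was left out, or with quantile scaling. Foxp1 was not among them after division by library totals or quantile scaling. The 2 called in neither were Foxj3 and Foxp3. Their number was 4 without KO-c19 replicate 1, WT replicate 1 or WT replicate 2, and 5 without WT replicate 3. By family, the lines differed as follows. Of 7 tested Sox genes, 1 rose in both lines, none fell in both and 2 were opposite, while of 12 tested Klf genes 7 rose and 4 fell in both lines and none were opposite. Fox genes had 9 rising, 4 falling and 2 opposite of 22 tested.

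**Figure D2:**
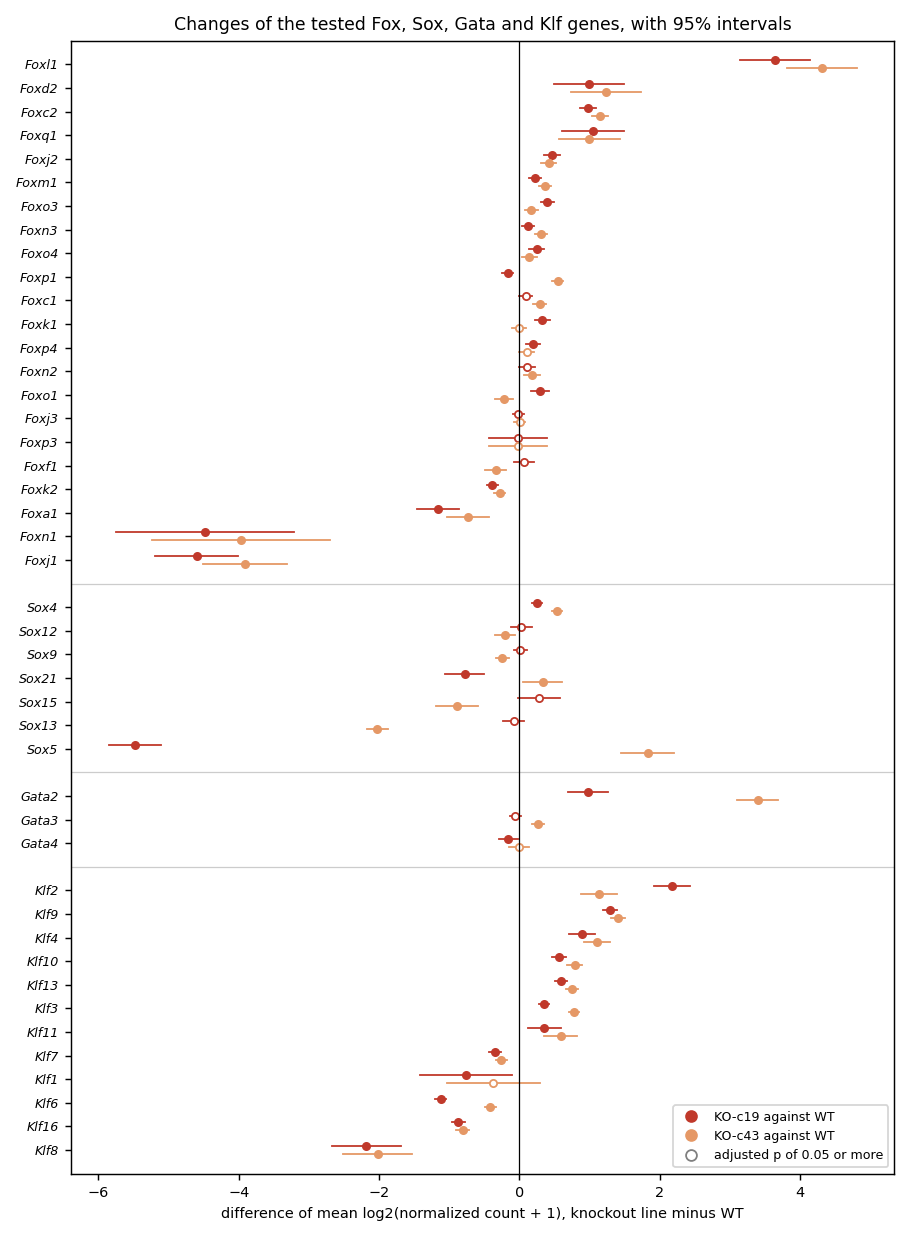
Differences of mean log2(normalized count + 1), each knockout line minus WT, for the 44 tested members by family, with 95% intervals from limma; filled points passed an adjusted p of 0.05. Most pairs of points lie on the same side of 0, and Sox5, Sox21, Foxp1 and Foxo1 have their filled points on opposite sides.

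Between the lines, 17 members were higher in KO-c43 than in KO-c19 (21.1% of all genes) and 9 were lower (18.3%). Of these, 3 were higher (2.55%) and 3 lower (3.45%) by at least 2-fold: Sox5, Gata2 and Sox21 were higher in KO-c43, and Sox13, Sox15 and Klf2 were lower. With values divided by library totals, 14 were higher and 11 lower, and over all genes the split was 2956 higher (16.8%) to 4309 lower (24.5%), in place of 3717 to 3211.

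Sox5 had the largest log2 differences from WT in KO-c19 and between the lines of all tested members. Sox5 (ENSMUSG00000041540) encodes a SoxD factor that acts with Sox9 in cartilage and is placed by the table on chromosome 6 at 143774151 to 144727703, in coordinates whose build the table does not name and that do not match the GRCm38 positions used for the promoter windows. It had 1.64, 3.04 and 3.34 normalized counts in the KO-c19 libraries, 530, 574 and 607 in KO-c43, and 158, 151 and 170 in WT. The KO-c19 values amount to about 3 reads or fewer per library, so its fall in KO-c19 has no firm size: the fitted log2 difference was −5.48 ± 0.18 (SE; limma adjusted p = 1.53e-14), and −5.70 or −4.43 with 0.5 or 5 in place of 1 added before the logarithm. The rise in KO-c43 was 1.83 ± 0.18 on the log2 scale, or 3.56-fold (limma adjusted p = 5.41e-08). No library of any group overlapped with another group. The antisense gene Sox5os1 was under 0.1 in every KO-c19 library, averaged 4.05 ± 3.39 in KO-c43 (SD, n = 3) and was under 0.1 in every WT library, and strand use in the counting is not given in the sources used here.

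Sox13, the other SoxD gene in the table, was lower in KO-c43 than in KO-c19, where Sox5 was higher. Sox13 (ENSMUSG00000070643, chromosome 1 at 133310041 to 133352115) had 674, 781 and 754 normalized counts in KO-c19, 185, 197 and 191 in KO-c43, against 777, 792 and 763 in WT. The KO-c43 libraries stood below all others, and KO-c19 and WT overlapped. The fall in KO-c43 was 4.06-fold, a log2 change of −2.02 ± 0.069 (SE; limma adjusted p = 2.99e-14). In KO-c19 the change was −0.08 (95% interval −0.23 to 0.06; limma adjusted p = 0.311). The lines differed by −1.94 ± 0.069, KO-c43 minus KO-c19 (limma adjusted p = 2.53e-13).

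Sox15 encodes the single mouse SoxG factor, known from muscle and placenta. It had 371, 504 and 504 normalized counts in KO-c19, 230, 206 and 176 in KO-c43, against 315, 403 and 416 in WT, so that KO-c43 alone was separate. It fell by 0.88 ± 0.14 on the log2 scale in KO-c43 (limma adjusted p = 7.39e-05), and in KO-c19 its difference of 0.28 did not pass (limma adjusted p = 0.0953). It passed without KO-c19 replicate 1 (0.42, limma adjusted p = 0.00645) and after division by library totals (0.38, limma adjusted p = 0.0381). Mpdu1 overlaps Sox15 on the opposite strand and averaged 1485, 1518 and 1170 normalized counts in KO-c19, KO-c43 and WT. Sox21, a SoxB repressor of neural progenitors, had 53.9, 47.6 and 50.1 in KO-c19, 108, 110 and 113 in KO-c43, against 89.9, 83.9 and 88.4 in WT. These 3 ranges did not overlap. The fall in KO-c19 was 1.72-fold (limma adjusted p = 4.28e-05). The rise in KO-c43 was 1.26-fold (limma adjusted p = 0.033), and it did not pass when any 1 of the KO-c43 or WT libraries was left out (limma adjusted p = 0.0547 to 0.0876).

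Among the abundant Sox genes the changes were small. Sox4 had 18937, 18826 and 19298 normalized counts in KO-c19, 22876, 23564 and 23216 in KO-c43, against 16450, 15998 and 15455 in WT. Each group was separate, and Sox4 was the only tested Sox gene that rose in both lines, by 1.19-fold in line KO-c19 and 1.45-fold in line KO-c43 (limma adjusted p = 3.09e-06 and 1.39e-10). Sox9, a SoxE factor of stem-like mammary cells and of cartilage, fell 1.18-fold in KO-c43 (limma adjusted p = 7.96e-05), where it had 5976 to 6088, against 7058 to 7226 in WT, and it had 6673 to 7589 in KO-c19, which overlapped WT. Sox12, a SoxC relative of Sox4, averaged 1397 ± 130 in KO-c19, 1184 ± 91.3 in KO-c43 and 1363 ± 59.6 in WT (SD, n = 3 each). Its fall in KO-c43 (limma adjusted p = 0.0145) did not pass without KO-c43 replicate 3, WT replicate 2 or WT replicate 3 (limma adjusted p = 0.0906, 0.0557 and 0.0522). The remaining Sox genes, Sox7, Sox8 and Sox10, did not pass the filter. Sox7, a SoxF gene of blood vessels, had 9.04, 6.08 and 8.91 in KO-c19, 4.84, 3.61 and 3.14 in KO-c43, against 1.80, 0 and 0 in WT, and Sox8 and Sox10 had at most 2.46 and 13.4 in any library.

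**Figure D3:**
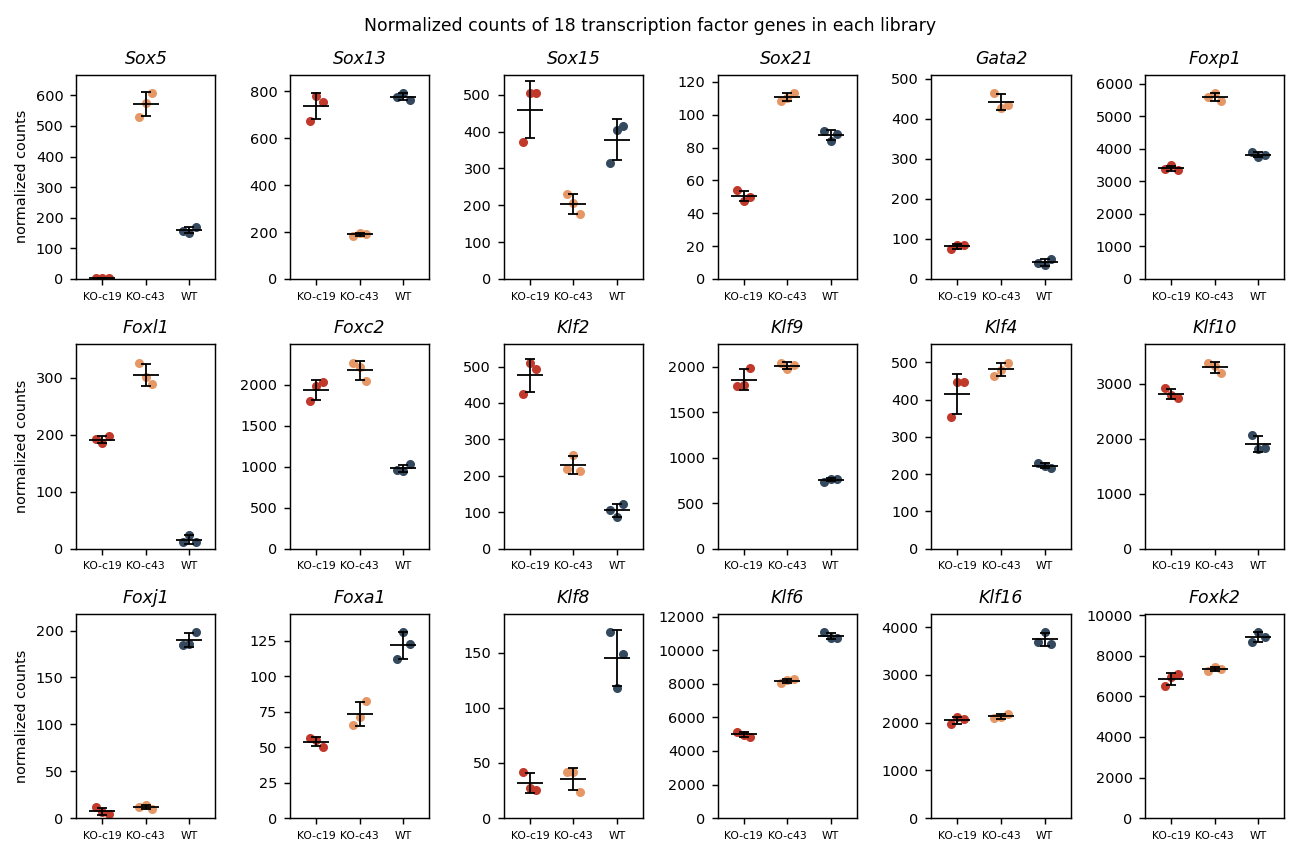
Normalized counts (linear axes from 0) of 18 named members in each library, points for libraries in KO-c19, KO-c43 and WT from left to right, with the mean and SD of 3. The top row holds genes whose values differ between the knockout lines, such as Sox5 near 0 in KO-c19 and 530 to 607 in KO-c43, and the lower rows hold genes that are higher or lower than WT in both lines.

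Gata2, known for blood stem cells, mast cells and endothelium, rose in both lines but to different levels. Gata2 (ENSMUSG00000015053, chromosome 6 at 88170873 to 88184014) had 74.8, 85.1 and 85.7 normalized counts in KO-c19, 464, 427 and 435 in KO-c43, against 39.7, 34.4 and 50.4 in WT. The 3 groups did not overlap. The rise was 1.97-fold in KO-c19 (log2 0.98 ± 0.14 SE, limma adjusted p = 5.48e-06) and 10.5-fold in KO-c43 (3.40 ± 0.14, limma adjusted p = 3.26e-13), and KO-c43 stood 5.35-fold above KO-c19 (limma adjusted p = 1.6e-10). The summed leukocyte markers were lower in both lines than in WT, as given earlier, through Csf1r alone. Csf1r averaged 14.95 in KO-c19, 12.61 in KO-c43 and 292.8 in WT. Cd68 averaged 279.9, 192.5 and 182.5, and was called higher in KO-c19 and not called in KO-c43. Ptprc averaged 9.09, 0.95 and 1.04. The 1 listed endothelial marker of 6 had 9.86 to 17.2 in KO-c19, 1.94 to 2.71 in KO-c43 and 4.51 to 11.0 in WT. The 2 listed erythroid markers of 6 summed to 15.6 to 27.0 in KO-c19, 9.21 to 16.6 in KO-c43 and 9.22 to 12.3 in WT. Their part in the rise of Gata2 was not tested.

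Gata3 was the predominant Gata transcript. It had 8610, 9186 and 9189 normalized counts in KO-c19, 11320, 11508 and 10941 in KO-c43, against 9542, 9446 and 9089 in WT. KO-c19 overlapped WT, with a log2 difference of −0.06 (95% interval −0.14 to 0.02), and KO-c43 was 1.20-fold above WT (limma adjusted p = 6.55e-06). Genes overlapping Gata3 were far lower: 4930412O13Rik on the opposite strand averaged 159, 162 and 80.2 in KO-c19, KO-c43 and WT. Gata4, a factor of heart and endoderm, had 556, 572 and 616 in KO-c19, 707, 622 and 615 in KO-c43, against 660, 650 and 629 in WT. Its fall in KO-c19 lay at the threshold (log2 −0.15, limma adjusted p = 0.0491) and did not pass without KO-c19 replicate 1 or 2, KO-c43 replicate 2 or any WT library (limma adjusted p = 0.057 to 0.129).

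Of the 12 tested Klf genes, 11 were called in the same direction in both lines, and Klf1 was called in KO-c19 and not in KO-c43. The largest rise in KO-c19 was that of Klf2, a factor of endothelial flow responses and lymphocyte quiescence (ENSMUSG00000055148, chromosome 8 at 73072877 to 73075500). Klf2 had 424, 511 and 492 normalized counts in KO-c19, 219, 257 and 214 in KO-c43, against 105, 86.6 and 123 in WT. The groups did not overlap, and KO-c43 lay between the other two. The rise was 4.54-fold in KO-c19 (log2 2.18 ± 0.12 SE, limma adjusted p = 2.81e-11) and 2.20-fold in KO-c43 (1.14 ± 0.12, limma adjusted p = 1.99e-07), and Klf2 was 2.07-fold lower in KO-c43 than in KO-c19 (limma adjusted p = 1.66e-06).

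Klf9, which glucocorticoid and thyroid hormones induce, had 1782, 1802 and 1989 normalized counts in KO-c19, 2044, 1973 and 2017 in KO-c43, against 735, 768 and 766 in WT. Both lines were above WT and overlapped each other, with rises of 2.45-fold in line KO-c19 and 2.66-fold in line KO-c43 (limma adjusted p = 1.44e-13 and 4.82e-14). Klf4, a reprogramming and epithelial differentiation factor, had 354, 447 and 448 in KO-c19, 465, 479 and 500 in KO-c43, against 231, 221 and 217 in WT. It rose 1.85-fold and 2.15-fold in the 2 lines. The difference of 0.22 between the lines, KO-c43 minus KO-c19, did not pass (limma adjusted p = 0.0621), but passed without KO-c19 replicate 2 or replicate 3 (limma adjusted p = 0.0401 and 0.0391).

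Klf10, induced by TGF-beta, rose 1.48-fold in line KO-c19 and 1.73-fold in line KO-c43, with 2740 to 2920 and 3192 to 3385 normalized counts, against 1812 to 2074 in WT. Klf13, an activator of the chemokine gene Ccl5 in T cells, averaged 5951 ± 326 in KO-c19, 6634 ± 56.4 in KO-c43 and 3928 ± 112 in WT (SD, n = 3 each), rises of 1.51-fold and 1.69-fold. Klf3, a repressor that binds CtBP, had 6425 to 6553 in KO-c19, 8383 to 8877 in KO-c43 and 5065 to 5075 in WT. Klf10, Klf13 and Klf3 were each higher in KO-c43 than in KO-c19 (limma adjusted p = 0.00146, 0.00539 and 2.42e-08). Klf11, the close relative of Klf10, rose 1.28-fold and 1.51-fold, its rise in KO-c19 not passing without WT replicate 1 (limma adjusted p = 0.0516).

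The 4 Klf genes that fell in both lines included the most abundant, Klf6. Klf6 (ENSMUSG00000000078, chromosome 13 at 5911481 to 5920393) had 5150, 4973 and 4846 normalized counts in KO-c19, 8032, 8202 and 8262 in KO-c43, against 11081, 10744 and 10737 in WT. All 3 groups were separate, and the fall was 2.18-fold in KO-c19 (log2 −1.12 ± 0.036 SE, limma adjusted p = 1.13e-14) and 1.33-fold in KO-c43 (−0.41 ± 0.036, limma adjusted p = 1.15e-08). Klf8, a CtBP-binding repressor linked with invasion in tumour cells, had 41.9, 27.4 and 25.6 in KO-c19, 41.6, 41.5 and 24.1 in KO-c43, against 169, 118 and 149 in WT. It fell 4.54-fold and 4.05-fold (limma adjusted p = 2.4e-07 and 6.7e-07), and the lines overlapped. Klf16 averaged 2052 ± 71.3 in KO-c19, 2137 ± 49.8 in KO-c43 and 3746 ± 133 in WT (SD, n = 3 each), falls of 1.82-fold and 1.75-fold. Klf7, a factor of neuronal growth, fell 1.27-fold and 1.19-fold.

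Klf1, the erythroid member, was near the filter, with 10.7, 15.2 and 8.91 normalized counts in KO-c19, 15.5, 18.1 and 12.6 in KO-c43, against 20.8, 14.4 and 26.3 in WT. KO-c19 overlapped WT, and the call in KO-c19 (log2 −0.76, limma adjusted p = 0.0391) did not pass without KO-c19 replicate 1 or 3 or WT replicate 1 or 3 (limma adjusted p = 0.0828 to 0.167). Klf12 did not pass the filter and had at most 5.75 in any library.

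Of the Fox genes, those that rose in both lines by the largest factors were low in WT. Foxl1, a mesenchymal factor that marks signalling fibroblasts of the gut (ENSMUSG00000097084, chromosome 8 at 121854679 to 121857383), had 191, 185 and 197 normalized counts in KO-c19, 326, 301 and 288 in KO-c43, against 10.8, 24.4 and 11.0 in WT. Both lines were far above WT, by 12.6-fold in KO-c19 (log2 3.65 ± 0.23 SE, limma adjusted p = 4.01e-09) and 19.9-fold in KO-c43 (4.32 ± 0.23, limma adjusted p = 6.6e-10). The summed fibroblast markers were also higher in both lines than in WT, as given earlier, through Pdgfra. The collagen genes of that list did not share the rise: Col1a1 averaged 2.72 in KO-c19, 6.53 in KO-c43 and 28.5 in WT, and Col1a2 averaged 0, 1.92 and 15.6. Both collagen genes passed the filter through WT alone and had to come out lower, so no call is read from them. The Foxl1 difference of 0.67 between the lines passed (limma adjusted p = 0.0337). It did not pass when any 1 library of either knockout line was left out (limma adjusted p = 0.0559 to 0.0942).

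Foxc2, a factor of lymphatic vessels and mesenchyme, had 1800, 1984 and 2033 normalized counts in KO-c19, 2268, 2214 and 2047 in KO-c43, against 964, 946 and 1027 in WT. It rose 1.98-fold in line KO-c19 and 2.22-fold in line KO-c43 (limma adjusted p = 2.81e-11 and 3.37e-12). Foxd2 had 32.9, 38.5 and 60.1 in KO-c19, 62.0, 46.0 and 45.0 in KO-c43, against 20.8, 23.3 and 18.6 in WT, rises of 1.99-fold and 2.36-fold. Its neighbour Foxd2os rose 1.27-fold in KO-c19 (limma adjusted p = 0.00205) and had a log2 difference of −0.06 in KO-c43 (limma adjusted p = 0.529). Foxq1, a gene chosen for mention after its values were seen, rose 2.07-fold and 2.00-fold but averaged only 40.0, 38.4 and 18.7 in KO-c19, KO-c43 and WT.

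Foxl1, Foxc2 and Foxf1 lie in 1 run on chromosome 8, which allowed neighbours to be compared. Within 100 kb of the start of Foxf1 the table has 5 gene starts: Fendrr, a noncoding RNA transcribed away from Foxf1, then Foxf1, Mthfsd, Foxc2 at 31.8 kb and Foxl1 at 43.6 kb. Foxf1, a factor of lung and gut mesenchyme, had 717, 831 and 902 normalized counts in KO-c19, 640, 604 and 601 in KO-c43, against 782, 775 and 769 in WT. Foxf1 thus overlapped WT in KO-c19 (log2 0.07, limma adjusted p = 0.407) and was 1.26-fold lower in KO-c43 (limma adjusted p = 0.000429). Its difference in KO-c19 passed without KO-c19 replicate 1 (0.16, limma adjusted p = 0.0256) and after division by library totals (0.17, limma adjusted p = 0.0414). Fendrr rose 1.52-fold in line KO-c19 and 1.15-fold in line KO-c43, and Mthfsd 1.12-fold and 1.13-fold. A gene model on the same strand, Galnt2l, spans all 3 Fox genes and averaged 2991, 2739 and 2704 in KO-c19, KO-c43 and WT.

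**Figure D4:**
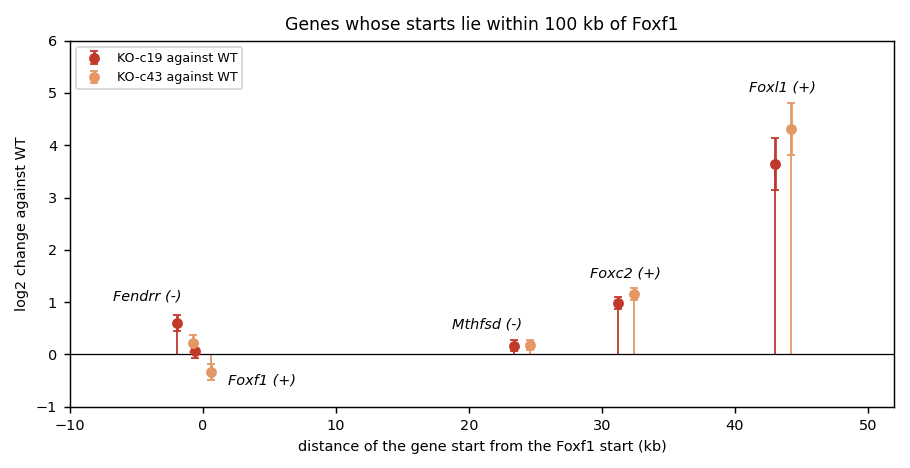
Log2 change against WT (points, with 95% intervals from limma) of the 5 genes whose starts lie within 100 kb of the Foxf1 start, by distance in kb and with strand in brackets; the 2 lines are drawn side by side for clarity. The changes are 0.07 and −0.33 for Foxf1 (KO-c19 and KO-c43), 0.16 and 0.18 for Mthfsd, about 1 for Foxc2, and 3.65 and 4.32 for Foxl1.

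Among the growth-linked Fox genes the changes were modest. Foxm1 had 10635, 12008 and 11646 normalized counts in KO-c19, 12528, 12577 and 12888 in KO-c43, against 9781, 9904 and 9722 in WT. All knockout libraries were above WT, by 1.17-fold in KO-c19 (limma adjusted p = 0.000125) and 1.29-fold in KO-c43 (limma adjusted p = 3.04e-07). Foxo3, a FoxO factor of stress resistance and cell death, had 2165, 2278 and 2287 in KO-c19, 1972, 1936 and 1857 in KO-c43, against 1664, 1755 and 1690 in WT. It rose 1.32-fold and 1.13-fold. Foxo1, its paralogue, had 1089, 1157 and 1192 in KO-c19, 810, 787 and 810 in KO-c43, against 986, 841 and 975 in WT. Foxo1 was therefore above WT in every KO-c19 library and below it in every KO-c43 library, by 1.23-fold (limma adjusted p = 0.00037) and 1.16-fold (limma adjusted p = 0.00521). Foxo4 rose 1.19-fold and 1.10-fold, the rise in KO-c43 not passing without KO-c43 replicate 3 or WT replicate 1 (limma adjusted p = 0.0772 and 0.0602), and Foxo6 did not pass the filter and had at most 3.87 in any library.

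Foxp1, a repressor of the FoxP group, was the other Fox gene with opposite calls. It had 3381, 3494 and 3335 normalized counts in KO-c19, 5587, 5712 and 5484 in KO-c43, against 3910, 3741 and 3806 in WT. KO-c43 stood 1.47-fold above WT (log2 0.55 ± 0.037 SE, limma adjusted p = 3.83e-10). KO-c19 lay 1.12-fold below WT (−0.17 ± 0.037, limma adjusted p = 0.000703), a fall that did not pass after division by library totals or quantile scaling (limma adjusted p = 0.125 and 0.0543). The lines differed 1.64-fold. Foxp4, another FoxP gene and the third most abundant Fox transcript in the table, rose 1.15-fold in KO-c19 (limma adjusted p = 0.00227), and its difference of 0.11 in KO-c43 did not pass (limma adjusted p = 0.0683), though it did without KO-c19 replicate 1 or 3 (limma adjusted p = 0.00402 and 0.0432) and after division by library totals (limma adjusted p = 0.0109). Foxp3, the regulatory T cell factor, had 44.0 to 74.6, 52.9 to 59.6 and 47.4 to 66.7 in KO-c19, KO-c43 and WT, and it shares its locus with Ccdc22 on the opposite strand, which averaged 1135, 1041 and 1236.

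The falling Fox genes included factors of cilia and of luminal cells. Foxj1, which switches on genes of motile cilia (ENSMUSG00000034227, chromosome 11 at 116221530 to 116226225), had 11.5, 6.08 and 4.45 normalized counts in KO-c19, 11.6, 14.4 and 9.42 in KO-c43, against 185, 185 and 198 in WT. Every knockout library was far below WT, with fitted log2 changes of −4.60 ± 0.28 in KO-c19 and −3.91 ± 0.28 in KO-c43 (SE; limma adjusted p = 9.93e-11 and 9.86e-10). Foxn1, the factor of thymic epithelium and hair, was listed at 0 in the 3 KO-c19 libraries, had 1.94, 0 and 0 in KO-c43, and had 26.2, 19.98 and 18.6 in WT. It passed the filter through WT alone, so no fold is given. Foxa1, the luminal pioneer factor, had 56.7, 54.7 and 50.1 in KO-c19, 65.8, 71.3 and 82.7 in KO-c43, against 112, 131 and 123 in WT. It fell 2.24-fold in line KO-c19 and 1.66-fold in line KO-c43 (limma adjusted p = 1.01e-06 and 0.000203). Foxa1 was higher in KO-c43 than in KO-c19 (limma adjusted p = 0.0216), but not when KO-c19 replicate 3 or KO-c43 replicate 3 was left out (limma adjusted p = 0.0753 and 0.0986).

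Foxk2, the highest Fox gene that fell, had 6518, 6954 and 7086 normalized counts in KO-c19, 7238, 7430 and 7371 in KO-c43, against 8698, 9171 and 8919 in WT. Its log2 changes were −0.38 and −0.28 (limma adjusted p = 8.14e-08 and 4.14e-06). Its paralogue Foxk1 moved otherwise, with a 1.26-fold rise in KO-c19 (limma adjusted p = 1.18e-05) and a log2 difference of −0.00 in KO-c43 (95% interval −0.11 to 0.10). Foxn3, a forkhead repressor, rose 1.09-fold and 1.24-fold. Foxc1, the paralogue of Foxc2, had 4323 to 4585 in KO-c19, 4860 to 5413 in KO-c43 and 4110 to 4277 in WT. It rose 1.22-fold in KO-c43 (limma adjusted p = 9.65e-06), and its difference of 0.09 in KO-c19 did not pass (limma adjusted p = 0.072). Foxn2 rose 1.14-fold in KO-c43 (limma adjusted p = 0.00594), with a difference of 0.11 in KO-c19 (limma adjusted p = 0.0934). Foxa3, a liver and endoderm factor, did not pass the filter and had at most 6.58 in any library. Foxj2 rose 1.38-fold and 1.34-fold, while its relative Foxj3 had differences of −0.01 and 0.00, with 95% intervals within −0.10 and 0.09.

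Genes that act with these factors were followed in 10 lists drawn from textbook knowledge, but chosen with earlier results of these data known. The lists were read against the same background shares of rising and falling genes as the members. Of 17 tested FoxO targets, KO-c19 had 12 rising and 5 falling and KO-c43 had 10 rising and 4 falling, and the list medians were 0.73 and 0.46 (log2), against 0.00 and 0.01 for all genes. Ccng2, a cyclin that restrains division, averaged 2088 in KO-c19, 1773 in KO-c43 and 510 in WT. Sesn3, a sestrin of the mTORC1 pathway, averaged 4293, 2719 and 1766, and the cell-cycle inhibitor gene Cdkn1a, also a p53 target, averaged 1921, 1018 and 541. These rises ran from 1.54-fold to 4.10-fold in the 2 lines (limma adjusted p of 7.44e-10 or less). The fallers held Sod2, Cat, Irs2 and Cited2 in both lines, and Gadd45a in KO-c19. Gadd45a fell 3.27-fold in KO-c19 and had a log2 difference of −0.27 in KO-c43 (limma adjusted p = 0.072).

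Of 17 genes that regulate FoxO proteins, KO-c19 had 6 rising and 9 falling and KO-c43 had 8 rising and 5 falling. Usp7, which deubiquitinates FoxO4 and other proteins, fell 1.47-fold and 1.44-fold. Akt1, which phosphorylates FoxO proteins, rose 1.37-fold in KO-c43 (limma adjusted p = 3.88e-09) and had a difference of 0.06 in KO-c19 (limma adjusted p = 0.165). Of 16 Foxm1 and cell-cycle targets, KO-c19 had 3 rising and 7 falling and KO-c43 had 6 rising and 8 falling, with medians of −0.05 in both, while Foxm1 itself rose. The risers in KO-c19 numbered 5 without KO-c19 replicate 1 and 6 after division by library totals. Mybl2 fell 1.48-fold and 1.62-fold and Aurka 1.38-fold and 1.40-fold, and the centromeric histone gene Cenpa rose 1.44-fold and 1.15-fold.

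Of 11 tested luminal mammary genes linked with Gata3 and Foxa1, 7 rose and 4 fell in each line. Among the fallers, Cited1 and Muc1 passed the filter through WT alone and had to come out lower, so nothing is read from them. They were not tested when any 1 WT library was left out, and 2 genes then fell in each line. Tfap2c, a riser, passed through the knockout lines alone. Areg, an EGF receptor ligand, averaged 2200 in KO-c19, 2434 in KO-c43 and 584 in WT, rises of 3.76-fold and 4.17-fold (limma adjusted p = 8.79e-17 and 3.15e-17). Krt19, a luminal keratin gene, fell 1.72-fold and 2.39-fold, and Elf3, an epithelial ETS factor gene, fell 1.75-fold and 2.48-fold. Of 10 tested Gata partners and GATA-type zinc finger genes, 6 rose and 3 fell in each line. Among these fallers, Lmo2 passed the filter through WT alone and had to come out lower, so nothing is read from it. Runx1 rose 1.40-fold and 1.27-fold, and Ldb1, the adaptor of Gata and Lmo proteins, rose 1.28-fold and 1.45-fold. Gatad2a, a subunit of the NuRD complex, fell 1.47-fold and 1.41-fold.

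Of 8 tested targets that Klf2 and Klf4 control under flow in endothelium, KO-c19 had 2 rising and 6 falling and KO-c43 had 4 rising and 3 falling, with medians of −1.47 and 0.05. Vcam1, an adhesion molecule gene, had 265, 285 and 322 in KO-c19, 2645, 2763 and 2992 in KO-c43, against 1085, 1056 and 1027 in WT. Vcam1 thus fell 3.64-fold in KO-c19 and rose 2.65-fold in KO-c43 (limma adjusted p = 6.25e-14 and 3.2e-12). Sele, which encodes E-selectin, had 554, 557 and 581 in KO-c19, 243, 239 and 273 in KO-c43, against 0.90, 0 and 1.10 in WT. Of 11 Klf partners and Sp factors, KO-c19 had 3 rising and 1 falling and KO-c43 had 5 rising and 2 falling. After division by library totals the rising ones numbered 10 and 8. Wwp1, a ubiquitin ligase gene, rose 2.61-fold and 2.19-fold, and Sp6 averaged 131 in KO-c19, 11.0 in KO-c43 and 223 in WT. Sp4 had a difference of 0.08 in KO-c19 (limma adjusted p = 0.314) and rose 1.42-fold in KO-c43 (limma adjusted p = 1.82e-06).

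Of 6 tested Sox partners, KO-c19 had 3 rising and 1 falling and KO-c43 had 3 rising and none falling. Lef1, an HMG-box partner of beta-catenin, had 16.0, 20.6 and 20.04 normalized counts in KO-c19, 110, 101 and 81.0 in KO-c43, against 9.92, 9.99 and 8.77 in WT. Tcf7l2, its relative, rose 1.45-fold in line KO-c19 and 2.02-fold in line KO-c43, and Ctnnb1, the beta-catenin gene, 1.31-fold and 1.06-fold. Of 6 TLE corepressor genes, which several Fox proteins recruit, KO-c19 had 4 rising and 1 falling and KO-c43 had 4 rising and 2 falling. Tle2 averaged 122 in KO-c19, 118 in KO-c43 and 18.7 in WT, Tle3 rose 1.72-fold and 1.58-fold, and Tle4 fell 2.82-fold and 2.42-fold. Of the cartilage targets of SoxE and SoxD factors only Col11a2 passed the filter, and it would not have passed without the KO-c19 libraries. It had 18.9, 18.2 and 14.5 normalized counts in KO-c19, against 10.8, 7.77 and 7.67 in WT, so no call is read from it. The fitted difference in KO-c19 was 1.87-fold upward (limma adjusted p = 0.019), which did not pass without KO-c19 replicate 1 or 2 or WT replicate 2 or 3. Its difference of 0.22 in KO-c43 did not pass (limma adjusted p = 0.564).

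**Figure D5:**
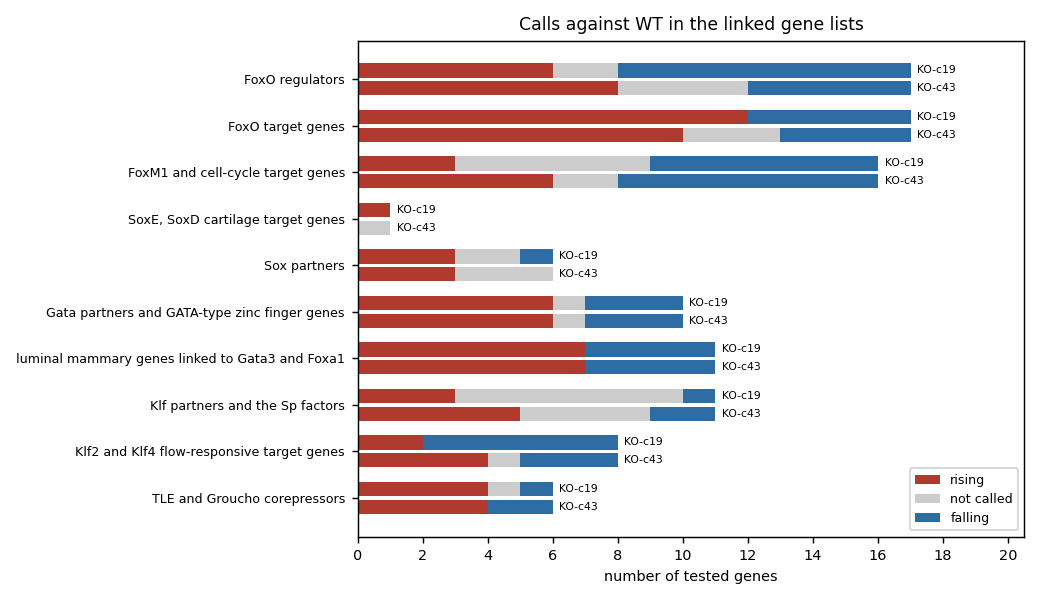
Number of tested genes called rising, not called or falling against WT in the 10 lists of linked genes, with the KO-c19 bar above the KO-c43 bar for each list. FoxO targets have the most rising genes, 12 of 17 in KO-c19 and 10 of 17 in KO-c43, and the flow-responsive targets of Klf2 and Klf4 have 6 of 8 falling in KO-c19 and 3 of 8 in KO-c43.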

How the data were processed

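Ribosome-depleted total RNA from 9 cultures was made into stranded libraries, per the labels' protocols. Per the submitters' processing notes, cutadapt, STAR, Partek and mm10 were used. Not given in the sources used here were versions, the counting step and its annotation. The table deposited by the authors holds a signal for each gene. Most of its low values lie near whole multiples of a step for each library, but not all do. Sox5os1 had 0.148 in KO-c43 replicate 3 and 1.48e-08 in WT replicate 1, which are not whole reads. Among low values, 83.8% to 84.6% were within 0.1 of whole numbers of reads, too few to recover whole reads, so a count model was not used.

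A pseudocount of 1 was added before taking log2. Genes reaching 10 in 3 or more libraries were kept (17579 of 22469). One limma fit (limma 3.58.1, R 4.3.3; intensity trend, robust empirical Bayes) held the 3 group means. The 3 contrasts were tested two-sided with Benjamini-Hochberg adjustment over all genes tested and a threshold of 0.05. The residual SD had a median of 0.092 (log2). Exon lengths came from GENCODE vM21 by gene ID, and promoter windows from RefSeq (GRCm38.p6). Gene coordinates are those of the table, written with inclusive ends, and are not those of GRCm38.

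The members and the gene lists were chosen with earlier results of these data known. Genes were named by a rule. In each family, among genes with a group mean of at least 50, it took up to 6 rising and 6 falling in both lines, all with opposite calls, up to 3 that differ most between the lines, and the 3 highest. In each list it took the 3 with the smallest adjusted p. Some genes that the rule takes are not reported here. The other members and list genes are named to account for counts and were chosen after their values were seen. Alternatives were other pseudocounts, filters, scalings (trimmed mean of M values, library totals, quantiles) and empirical Bayes settings, only the groups compared, the replicate number as a block, and each library left out.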

Additional observations from a re-analysis of the deposited data

Results flagged for a closer look

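The calls against WT were tested for a difference between the knockout lines, and 26 of the 44 tested members differed between KO-c43 and KO-c19 (limma, adjusted p under 0.05 over all genes), where 39.4% of all genes tested did. Values are log2 differences, KO-c43 minus KO-c19. The widest was Sox5, at 7.31, followed by Gata2 at 2.42. Sox13 at −1.94, Sox15 at −1.16, Sox21 at 1.11 and Klf2 at −1.05 were the others of at least 2-fold. Differences of 0.5 to 1 were found for Foxp1 (0.72), Klf6 (0.71), Foxl1 (0.67) and Foxo1 (−0.51). Among Fox genes the smaller ones were Foxa1 (0.43), Foxf1 (−0.40), Foxk1 (−0.33), Foxo3 (−0.22), Foxc1 (0.20), Foxn3 (0.18), Foxc2 (0.17), Foxm1 (0.15) and Foxk2 (0.10). Among Klf genes they were Klf3 (0.42), Klf10 (0.23) and Klf13 (0.16). Gata3 differed by 0.32, Sox4 by 0.29, Sox9 by −0.25 and Sox12 by −0.24. The differences of Foxk2, Foxl1, Foxc2, Foxa1 and Sox12 did not pass when at least 1 single library was left out, and that of Foxk2 passed only without KO-c19 replicate 3 among the 9 such fits.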

How the results depend on the processing

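The counts of members rising or falling in each comparison were within 1.5 times under every alternative and no call changed direction. The 2 tested members called in neither line became 4 with the replicate block or without trend and robust fitting, 5 after division by library totals and 6 with no filter, which tests more members. Over the members, 132 differences (44 genes, 3 comparisons) were refitted under up to 19 alternatives, 2486 refits in all: 2383 kept their side of the threshold, 71 lost a call and 32 gained one. With 1 library left out at a time, the members rising numbered 20 to 24 in KO-c19 and 22 to 25 in KO-c43, those falling 10 to 13 and 12 to 14, those higher in KO-c43 than in KO-c19 14 to 18 and those lower 8 to 11. Of the 17300 to 17452 genes then tested, 5293 to 5744 rose in KO-c19 and 5277 to 5839 in KO-c43. Those falling numbered 5566 to 6130 and 5277 to 6025. Between the lines, 3194 to 4051 were higher in KO-c43 and 2570 to 3504 lower. The members rising in both lines then numbered 17 to 20 and those falling in both 7 or 8. Division by library totals or quantile scaling also ended the call of Foxm1 between the lines (limma adjusted p = 0.0596 and 0.113) and brought Foxc1, Foxn2 and Sox9 in KO-c19 past the threshold. The cause was not tested. Same-numbered replicates did not deviate together (correlations of −0.09 to 0.07), so no shared effect of the number was seen. Whether same-numbered cultures were handled together cannot be read from these correlations. With the replicate block, 21 members rose and 11 fell in KO-c19, where 5709 and 6065 of 17579 genes did. In KO-c43, 24 rose and 14 fell, where 5663 and 5792 of all genes did. Gata4 and Klf1 then lost their calls in KO-c19 (limma adjusted p = 0.061 and 0.0539). Levels of a few reads or none per library, as for Sox5 in KO-c19 and Foxn1 in both lines, limit what can be said of their size.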
